A study of Rattus norvegicus with 16 samples.

Results

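The genes described here are the ER stress and heat shock chaperone genes of the rat kidney, a set of 39 named genes of which 38 have a row among the 35849 rows of the gene expression table. They were taken by name and set apart by role, with earlier results of these data known. There were 3 sensors of the unfolded protein response (UPR), 3 UPR transcription factors, 14 chaperones and folding enzymes of the endoplasmic reticulum (ER) and 4 genes of ER-associated degradation. The others were 4 targets of the transcription factor ATF4, 8 cytosolic heat shock genes and 2 mitochondrial chaperonins. Hspa1a, the member without a row under its name, was not analysed here. The study asked how sinomenine (SIN), an alkaloid, acts in diabetic nephropathy (DN), and RNA sequencing was carried out on 16 male Sprague Dawley rats, 4 in each of 4 groups, aged 6 to 8 weeks at the start. Rats of the DN group received 1 streptozotocin injection of 45 mg/kg, which destroys pancreatic beta cells, had a blood glucose over 16.7 mmol/L a week later, and ate a diet rich in glucose and fat. Rats given SIN had the same injection and diet, and SIN was given daily by gavage for 8 weeks at 20 mg/kg in the SIN (20 mg/kg) group or at 40 mg/kg in the SIN (40 mg/kg) group. The normal group received citrate buffer and a normal diet, so that streptozotocin, hyperglycemia and diet cannot be told apart in any comparison with it. The study's abstract gives vehicle to the DN group by the same daily gavage for 8 weeks. Whether normal rats were gavaged is not stated.

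Proteins that enter the secretory pathway are folded in the ER by chaperones of the HSP70 and HSP90 families, by lectin chaperones and by protein disulfide isomerases. When unfolded protein accumulates there, the sensors ATF6, IRE1 (gene Ern1) and PERK (gene Eif2ak3) raise ER chaperones and degradation factors through cleaved ATF6 and spliced XBP1, and slow translation while ATF4 and CHOP (gene Ddit3) accumulate. In the cytosol, heat shock factor HSF1 raises a separate set of chaperones, and in the kidney both systems serve tubule cells, which make and reabsorb much protein.

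Libraries held 19616312 to 25217030 estimated counts, and levels are given as CPM, counts scaled to the library's total after TMM scaling in edgeR. The study's methods name renal tissue. Defining kidney genes were present in every rat, with Umod (thick ascending limb) at 1367 CPM or more and Slc34a1 (proximal tubule) at 2879 CPM or more. Umod itself was lower in DN than in normal (log2 fold change -0.77, adjusted p = 0.015). Some other marker lists moved with the groups. The summed level of 5 fibroblast and muscle markers was 102 to 194 CPM in normal rats, 154 to 575 in DN, 111 to 128 in SIN (20 mg/kg) and 129 to 143 in SIN (40 mg/kg). The normal and DN ranges overlapped, and the DN median was 186 CPM. Col1a1 had a log2 fold change of 1.08 in DN over normal (adjusted p = 0.026). Lum, Des, Acta2 and Myh11 were also positive there, with adjusted p of 0.54, 0.074, 0.11 and 0.28. The summed level of 5 plasma cell markers, a cell type with a large ER, was 18.1 to 28 CPM in normal and 34.7 to 85.9 in DN. It was 37.4 to 68.4 CPM in SIN (20 mg/kg) and 34.9 to 61.9 in SIN (40 mg/kg). Most of this sum was Sdc1, with a mean of 16.1 CPM in normal and 44.1 in DN (log2 fold change 1.46, adjusted p = 0.019). Jchain had 0.41 (adjusted p = 0.37) and Pou2af1 -0.01 (adjusted p = 0.98). The defining members Mzb1 and Tnfrsf17 stayed at or under 0.387 CPM in every rat. Summed levels of 3 adipocyte markers were 59.4 to 66.5 CPM in normal and 83.6 to 126 in DN, without overlap. They were 95.5 to 146 CPM in SIN (20 mg/kg) and 63.8 to 124 in SIN (40 mg/kg). Most of this sum was Cidec, with a mean of 54.9 CPM in normal and 92.2 in DN (log2 fold change 0.75, adjusted p = 0.0095). Adipoq had a log2 fold change of 0.21 (adjusted p = 0.62) and Plin1 of 2.02 (adjusted p = 0.27). For 6 markers of the inner medulla and of tonicity the sums overlapped, with 427 to 1308 CPM in normal, 772 to 1984 in DN, 1119 to 1921 in SIN (20 mg/kg) and 1151 to 2299 in SIN (40 mg/kg), and Aqp2 had a log2 fold change of 1.23 in DN over normal (adjusted p = 0.076). Leukocyte and urothelium sums overlapped among all groups. Of 5 tested leukocyte genes, 3 had a negative sign in DN over normal and 2 a positive sign. Only Ptprc had an adjusted p under 0.05 (log2 fold change -0.81, adjusted p = 0.033), while Csf1r went the other way at 0.43 (adjusted p = 0.090). A score of clock genes (the mean log2 CPM of 10 genes in phase with Dbp less the mean of 5 in phase with Bmal1) ran from -0.66 to 0.06 in normal, 0.62 to 2.02 in DN, 1.73 to 3.22 in SIN (20 mg/kg) and 2.17 to 2.79 in SIN (40 mg/kg). The part of cell makeup and of clock phase in the results below was not tested, and fewer cells of a type and less RNA per cell cannot be told apart in whole tissue. The codes that begin the sample descriptions ran consecutively within each group. What these codes stand for is not given, and any batch that follows them could not be told apart from group.

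In the DN group compared with normal, the ER chaperones Hspa5, Hsp90b1, Dnajc3 and Canx, the sensor Atf6 and the cytosolic chaperones Hspa8 and Hsph1 were lower, by 0.34 to 0.66 on the log2 scale, and the ubiquitin ligase gene Syvn1 was higher. No UPR transcription factor and no tested ATF4 target passed the test. These 8 of 37 tested members (21.6%) had an adjusted p under 0.05 in edgeR's quasi-likelihood test with Benjamini-Hochberg adjustment, beside 19.5% of the 15775 genes tested, and genes that passed this threshold are referred to as called. Of the members 7 were lower and 1 was higher, where 10.8% of all genes were lower and 8.74% higher. The study's rule, which adds a minimum log2 change of 1 in either direction, was met by no member and by 3.8% of all genes. The median log2 fold change was -0.18 over the 37 members and 0.00 over all genes tested, with a negative sign in 25 members and a positive sign in 12. Call counts depended on single rats, with 1 member called without normal replicate 4, 2 without normal replicate 3 or DN replicate 1, 3 without normal replicate 1 or DN replicate 2 and 4 without DN replicate 4. Without DN replicate 3, the rat with the highest fibroblast and muscle sum, 7 were called. When all genes were split by length into 4 equal bins, the longest (from 3283 bases) had a median log2 fold change of -0.10 and the shortest (up to 1341 bases) 0.06, and the 9 and 6 members in these bins had medians of -0.17 and 0.17. In the bins between, from shorter to longer, all genes had medians of 0.03 and 0.01, and the 12 and 10 members there had -0.19 and -0.31. The part of gene length in the members' values was not tested.

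**Figure D1:**
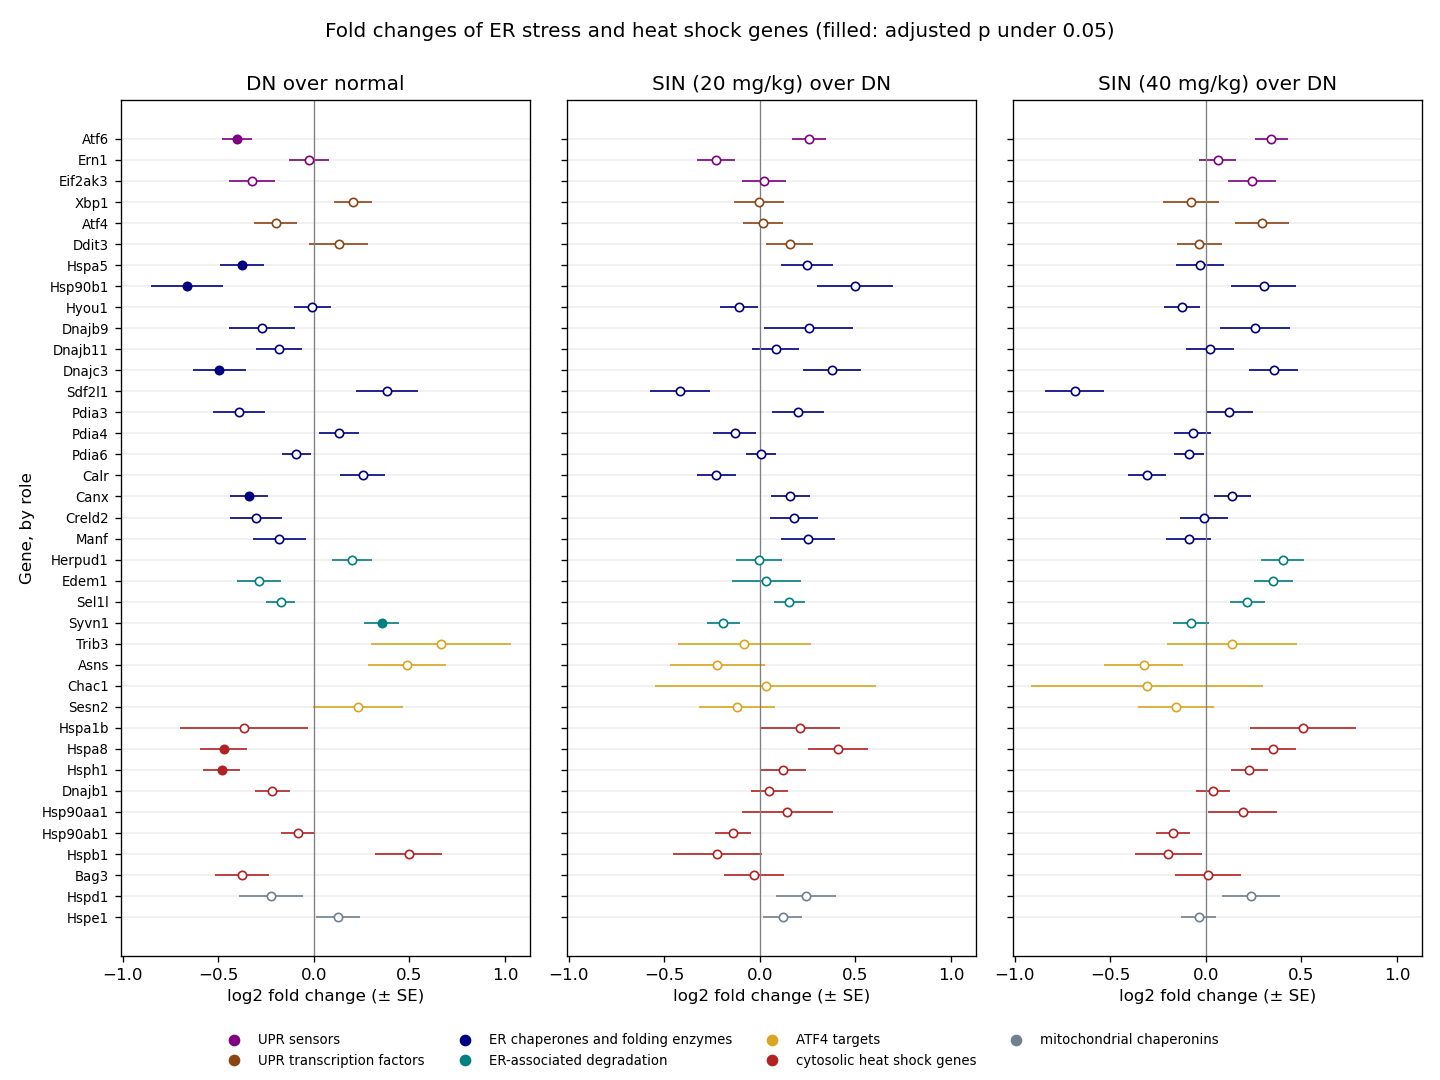
Each point is the log2 fold change of 1 gene with its standard error (horizontal bar), ordered by role, for DN over normal and for both SIN doses over DN, and filled points have an adjusted p under 0.05. The 8 filled points are all in the DN over normal panel, 7 to the left of 0 and Syvn1 to the right. Chac1, which was not tested there, and Hsp90aa1, which is listed at 0 in 1 normal rat, are left out of that panel.

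Among the sensors, Atf6 encodes the membrane-bound factor that is cut in the Golgi and then raises ER chaperones. Its level was 93.5, 90.4, 87.5 and 95.97 CPM in the normal rats and 65.9, 66.1, 74.5 and 70.6 in DN. The ranges did not overlap, and the difference passed the test (log2 fold change -0.40, SE 0.08, adjusted p = 0.013), although not without normal replicate 4 (adjusted p = 0.052). With SIN the level was 85.8, 78.9, 89.4 and 78.4 CPM at 20 mg/kg and 89.8, 87.3, 79.9 and 94.3 at 40 mg/kg. Both SIN groups were wholly above DN, 1 rat of the lower dose and 2 of the higher lay within the normal range, and neither dose passed the test against DN, with a log2 difference of 0.26 (unadjusted p = 0.016, adjusted p = 0.27) and 0.34 (unadjusted p = 0.0028, adjusted p = 0.19). Eif2ak3, the kinase that slows translation, was 36.6, 26.5, 33.4 and 33.1 CPM in normal and 23.5, 29.3, 25.9 and 24.5 in DN, ranges that overlapped, and its log2 fold change was -0.32 (adjusted p = 0.083). Ern1, the kinase and nuclease that splices Xbp1, differed least of the 3 sensors, with 42.4, 44.6, 36.8 and 37.6 CPM in normal, 37.6, 41.2, 44.4 and 35.1 in DN and a log2 fold change of -0.02 (adjusted p = 0.89).

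The 3 transcription factors below the sensors gave no call. Xbp1 had 90.6, 102, 86.4 and 95.3 CPM in normal and 122, 105, 93.3 and 109 in DN, with a log2 fold change of 0.21 (adjusted p = 0.16). Gene counts add the unspliced and spliced forms of Xbp1, so splicing could not be read. Atf4, which is regulated mostly at translation, had 132, 139, 174 and 151 CPM in normal and 143, 137, 116 and 121 in DN, with a log2 fold change of -0.20 (adjusted p = 0.23). Ddit3, the gene of the pro-apoptotic factor CHOP, had 8.80, 8.13, 12.5 and 10.1 CPM in normal and 10.1, 11.1, 10.2 and 11.6 in DN, and its log2 fold change was 0.13 (adjusted p = 0.58). In each of these genes the DN and normal rats overlapped. With SIN, Atf4 was 126, 139, 146 and 115 CPM at 20 mg/kg and 116, 167, 180.5 and 171 at 40 mg/kg, with 3 of the 4 rats of the higher dose above every DN rat, and log2 fold changes over DN of 0.02 (adjusted p = 0.95) and 0.29 (adjusted p = 0.32). Xbp1 and Ddit3 had log2 fold changes over DN of -0.01 and 0.16 at 20 mg/kg and of -0.08 and -0.03 at 40 mg/kg, each under the threshold.

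The ER stress response element (ERSE), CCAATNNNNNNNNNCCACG, is the classical binding site of ATF6 and XBP1 together with NF-Y. RefSeq promoter windows (rat build GRCr8, 250 bases before to 50 after the annotated start) were given for 31 of the 38 members. Searched on both strands, the ERSE was found in 22 of 33469 windows of all genes (0.0657%) and in 7 members, Hspa5, Hsp90b1, Dnajc3, Canx, Calr, Xbp1 and Creld2. The sequences around the matches are shown because the 7 genes share the element and differ in call, with the first 4 called lower in DN and the last 3 not called. Of the other called ER genes, Atf6 had no window and was not searched, and no ERSE was found in that of Syvn1. Capitals mark the match, and a match on the reverse strand reads as the reverse complement of the element.
Hspa5 (chr3:38452953-38453011, plus strand): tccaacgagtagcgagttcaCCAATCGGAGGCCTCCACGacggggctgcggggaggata
Hsp90b1 (chr7:23012327-23012489, minus strand): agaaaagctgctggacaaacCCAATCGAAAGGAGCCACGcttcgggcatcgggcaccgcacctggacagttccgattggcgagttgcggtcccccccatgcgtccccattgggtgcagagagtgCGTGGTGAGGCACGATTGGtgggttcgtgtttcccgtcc
Dnajc3 (chr15:102432514-102432572, plus strand): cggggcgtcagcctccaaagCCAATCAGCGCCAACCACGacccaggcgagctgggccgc
Canx (chr10:35158049-35158107, minus strand): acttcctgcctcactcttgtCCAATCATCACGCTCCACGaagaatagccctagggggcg
Calr (chr19:40213117-40213173, plus strand): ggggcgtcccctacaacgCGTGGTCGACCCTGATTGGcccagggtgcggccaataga
Xbp1 (chr14:84604538-84604596, plus strand): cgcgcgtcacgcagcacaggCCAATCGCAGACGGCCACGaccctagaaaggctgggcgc
Creld2 (chr7:121789219-121789277, plus strand): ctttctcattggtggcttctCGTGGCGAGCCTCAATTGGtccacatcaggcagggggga
Hsp90b1 held 2 matches, at -176 and -72 from the start and in opposite orientations, and each of the others held 1. The related element ERSE-II, ATTGGNCCACG, was found in 17 windows of all genes (0.0508%) and in the members Hyou1, Dnajb11 and Herpud1, and no member held both elements. These matches are a description of letters in the windows, and members with the ERSE were found both among those called lower in DN and among those not called.

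**Figure D2:**
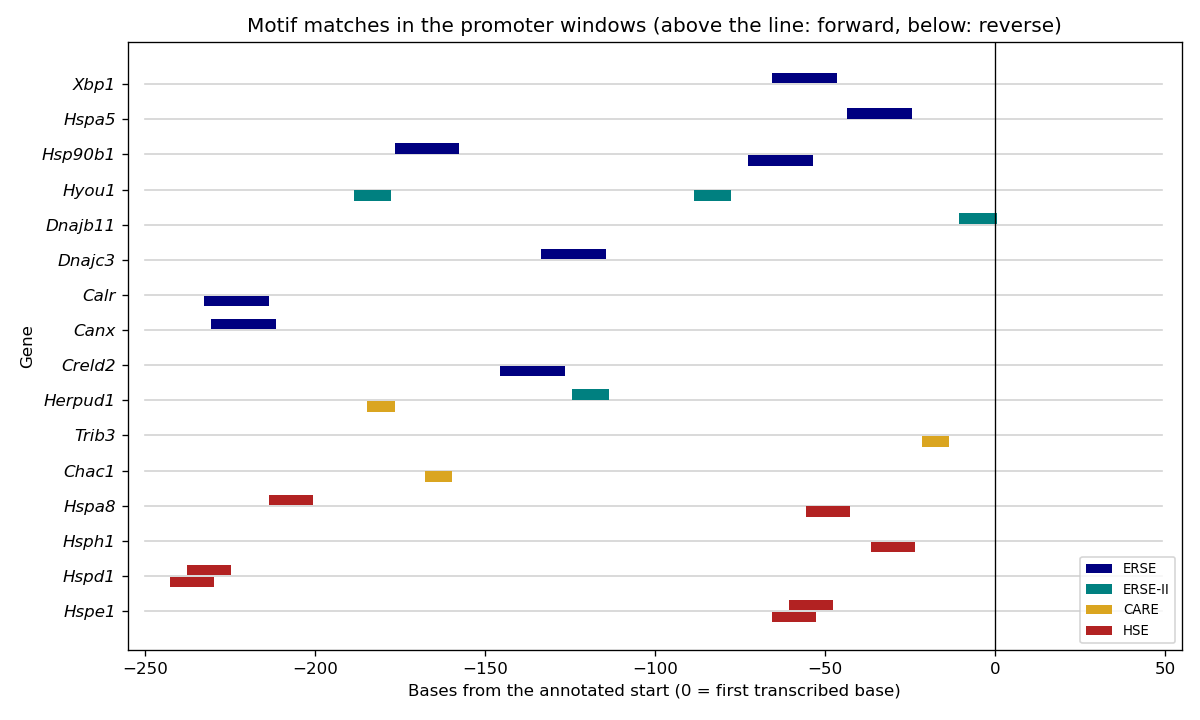
Bars mark matches to the ERSE, to ERSE-II, to the ATF4 element (CARE) and to the heat shock element (HSE) in the promoter windows of the 16 members that hold any, by distance in bases from the annotated start. Bars above a gene's line are on the forward strand and bars below it on the reverse, and most matches are within 250 bases before the start, with 1 in Dnajb11 reaching position 0.

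Hspa5, which encodes BiP, the HSP70 of the ER that also holds the sensors inactive, had 488, 392, 415 and 382 CPM in normal and 276, 348, 336 and 329 in DN. All DN rats were below all normal rats (log2 fold change -0.37, SE 0.12, adjusted p = 0.048). The SIN (20 mg/kg) rats had 394, 401, 445 and 297 CPM, 3 of them within the normal range and replicate 4 within the DN range, and the SIN (40 mg/kg) rats had 383, 312, 266 and 301, all but replicate 1 below the normal range. Hsp90b1, the gene of the ER paralog GRP94, which folds integrins and Toll-like receptors, had 402, 268, 370.0 and 340.4 CPM in normal and 146, 227, 260.4 and 236 in DN. The DN range ended just below the normal range, DN replicate 1 was the lowest of the 16 rats, and the log2 fold change was the largest in size among the called members of this comparison (log2 fold change -0.66, SE 0.19, adjusted p = 0.038). In the SIN groups it was 382, 285, 334 and 234 CPM at 20 mg/kg and 294, 267, 229.5 and 282 at 40 mg/kg, both overlapping DN.

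Dnajc3, a co-chaperone of BiP that also inhibits PERK, had 33.8, 27.3, 36.3 and 36.9 CPM in normal and 21.95, 26.1, 27.5 and 19.6 in DN. DN replicate 3 was just above normal replicate 2, the groups were otherwise apart, and the difference passed the test (log2 fold change -0.49, SE 0.14, adjusted p = 0.036). Canx, the gene of calnexin, a membrane lectin that holds glycoproteins during folding, had 507, 461, 529 and 530.5 CPM in normal and 377, 421, 436 and 366 in DN, with no overlap (log2 fold change -0.34, SE 0.10, adjusted p = 0.041). The calls for Hspa5, Hsp90b1, Dnajc3 and Canx were lost when any 1 of normal replicates 1, 3 and 4 or DN replicates 1, 2 and 4 was left out, with adjusted p from 0.051 to 0.12, and that for Hspa5 also without DN replicate 3. With all rats kept, the call for Hspa5 was lost in 4 of 6 other processing choices, with RLE scaling (adjusted p = 0.054), all 16 rats in 1 fit (0.057), no filter (0.068) and a replicate block (0.13), and that for Canx in 2, with no filter (0.063) and a replicate block (0.098). Canx and Dnajc3 in the SIN groups lay between, with 448 ± 35.2 and 439.7 ± 27.6 CPM (SD, n = 4) for Canx and 31.03 ± 5.33 and 30.4 ± 2.70 for Dnajc3.

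**Figure D3:**
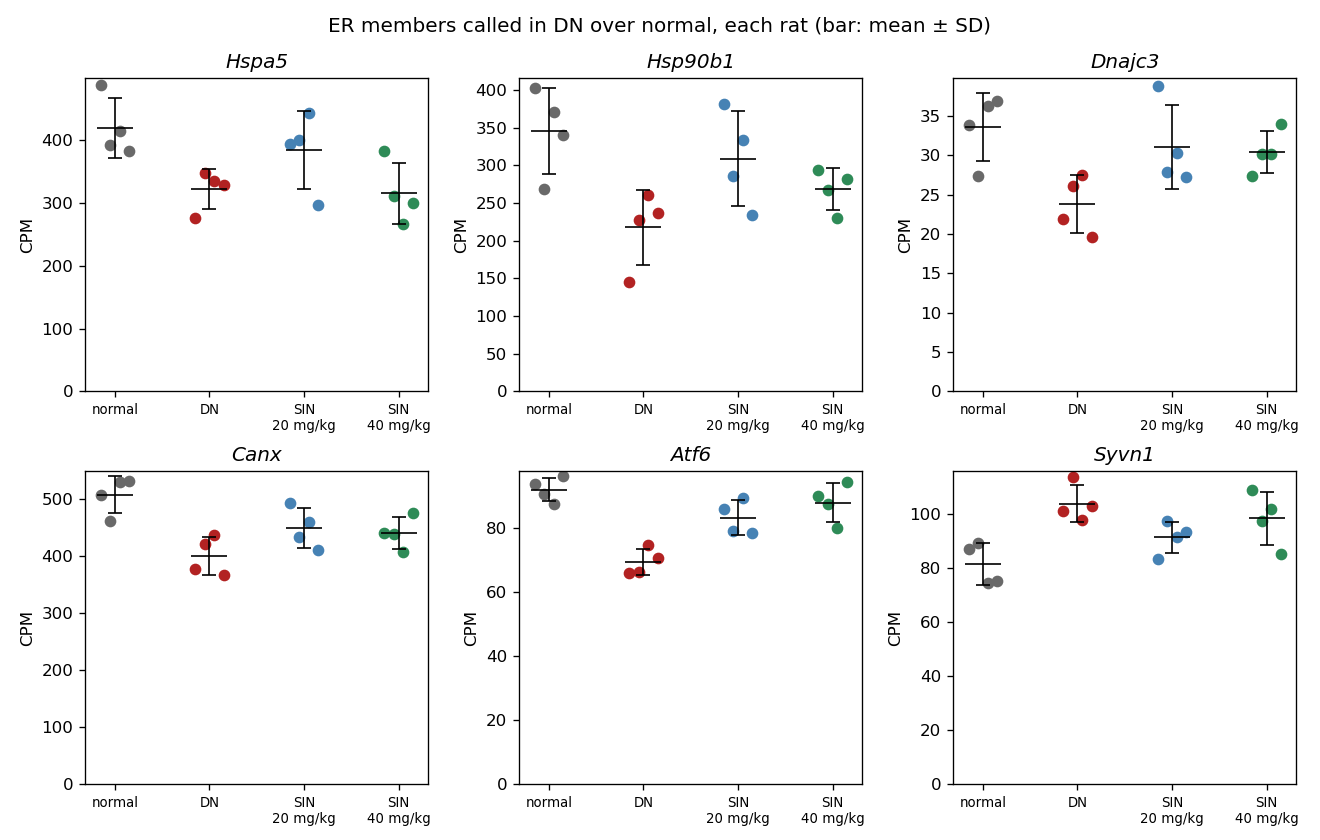
Points are the 4 rats of each group in CPM, and bars give the mean and SD, for the 6 ER members called in DN over normal. Hspa5, Hsp90b1, Canx and Atf6 have every DN rat below every normal rat, Dnajc3 overlaps slightly, and Syvn1 has every DN rat above.

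The other 10 ER chaperones and folding enzymes gave no call in DN over normal, with log2 fold changes from -0.39 to 0.38 and signs in both directions. Pdia3, the disulfide isomerase that works with the lectin chaperones, had 364, 282, 339.9 and 318 CPM in normal and 195, 244, 276 and 274 in DN. These ranges did not overlap, but the adjusted p was 0.066 in edgeR (log2 fold change -0.39) and 0.032 in DESeq2. Calr, the soluble counterpart of calnexin, was 716, 691, 533 and 550.1 CPM in normal and 742, 752, 734 and 735 in DN, where the rats lay close together and above every normal rat, with a log2 fold change of 0.25 (adjusted p = 0.15). Calreticulin and calnexin genes thus had opposite signs, and the difference between them was not tested. Sdf2l1, which keeps BiP clients soluble, had 12.9, 14.1, 12.6 and 9.03 CPM in normal and 16.3, 18.7, 14.05 and 14.2 in DN, ranges that overlapped in 1 rat of each group, and a log2 fold change of 0.38 (adjusted p = 0.12). The remaining members Hyou1, Dnajb9, Dnajb11, Pdia4, Pdia6, Creld2 and Manf had log2 fold changes of -0.01, -0.27, -0.18, 0.13, -0.09, -0.30 and -0.18. Over all 14 genes of this role 4 were called lower and none higher (28.6% called, beside 10.8% lower and 8.74% higher among all genes), with a median of -0.23.

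Within ER-associated degradation, Syvn1 encodes the ubiquitin ligase HRD1, Sel1l its membrane partner, Edem1 a lectin that delivers mannose-trimmed clients and Herpud1 a scaffold of the same complex. Syvn1 was 86.98, 89.3, 74.5 and 75.2 CPM in normal and 101, 114, 97.7 and 103 in DN, so that every DN rat was above every normal rat (log2 fold change 0.35, SE 0.09, adjusted p = 0.029). The call was lost without normal replicate 3 or 4 or DN replicate 1 or 2, with adjusted p from 0.052 to 0.094. Its partner Sel1l was 90.7, 94.9, 87.7 and 95.3 CPM in normal and 75.2, 86.5, 83.1 and 80.7 in DN, without overlap in the opposite direction, but did not pass the test (log2 fold change -0.17, adjusted p = 0.13). Edem1 had a log2 fold change of -0.29 (adjusted p = 0.10).

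Herpud1 did not pass the test in DN (log2 fold change 0.20, adjusted p = 0.19) and is the only member called in SIN (40 mg/kg) over normal, where 5.97% of the 15735 genes tested were called. Its promoter window holds an ERSE-II and an element of the ATF4 type (CARE, TGATGNAA, in 3.98% of all windows), here on the reverse strand. The sequence is shown in the order of transcription with both in capitals, the CARE first.
Herpud1 (chr19:10614801-10614911, minus strand): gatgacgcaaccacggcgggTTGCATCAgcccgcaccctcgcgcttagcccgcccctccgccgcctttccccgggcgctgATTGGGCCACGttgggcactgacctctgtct
The level of Herpud1 was 155, 181, 143 and 169.5 CPM in normal, 172, 189.8, 207 and 173 in DN, 152, 213, 199 and 179.7 in SIN (20 mg/kg) and 213, 233, 283 and 251 in SIN (40 mg/kg). Each rat of the higher dose was above every rat of the other 3 groups. Its lowest rat, at 213.1 CPM, was only just above SIN (20 mg/kg) replicate 2, at 212.9. The difference from normal passed the test (log2 fold change 0.59, SE 0.11, adjusted p = 0.014) and kept its call in all 14 alternatives, the left-out rats included. Against DN the log2 fold change was 0.40 (unadjusted p = 0.0050, adjusted p = 0.20), and against SIN (20 mg/kg) it was 0.39 (unadjusted p = 0.011, adjusted p = 0.96). Without normal replicate 2 or SIN (40 mg/kg) replicate 1 the number of members called in SIN (40 mg/kg) over normal was 2. With DESeq2 it was 4, where Hspa5, Hsph1 and Hsp90ab1, each lower than normal, joined Herpud1 (DESeq2 adjusted p = 0.030, 0.029 and 0.024).

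ATF4 raises genes of amino acid supply and stress control. Trib3, a pseudokinase that restrains AKT and ATF4, was low, at 0.792, 0.774, 0.615 and 0.489 CPM in normal and 1.59, 0.910, 0.626 and 1.10 in DN. Only DN replicate 3 lay within the normal range, and the log2 fold change was 0.67, SE 0.37, adjusted p = 0.22. Asns, asparagine synthetase, had 7.12, 6.34, 6.54 and 6.85 CPM in normal, a narrow range, and 12.4, 10.8, 7.96 and 6.43 in DN, where replicates 1, 2 and 3 were above every normal rat. Its log2 fold change was 0.49 (adjusted p = 0.11), and without DN replicate 4 it passed the test (adjusted p = 0.043). Sesn2, which inhibits mTORC1 when leucine is scarce, had 133, 85.1, 72.5 and 115 CPM in normal and 83.5, 97.8, 152 and 142 in DN, ranges that overlapped widely (log2 fold change 0.23, adjusted p = 0.51).

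Chac1, which degrades glutathione, was the least abundant member and was removed by the filter on low counts in DN over normal and in SIN (40 mg/kg) over normal. It had 2, 6, 7 and 9 estimated counts in the normal rats, 47, 16, 11 and 5 in DN, 16, 34, 18 and 16 in SIN (20 mg/kg) and 8, 21, 20 and 12 in SIN (40 mg/kg). The SIN (20 mg/kg) rats did not overlap the normal rats. In that comparison Chac1 passed the filter through the SIN (20 mg/kg) rats, the group where it is high, so its difference is given as a description and not as support (log2 fold change 1.74, SE 0.45, adjusted p = 0.048). No other member was called there, where 6.36% of the 15877 genes tested were called. For Chac1 the call was lost with no filter (adjusted p = 0.078), with all 16 rats in 1 fit (0.093), with a replicate block (0.084) and when any 1 of the 8 rats was left out (0.051 to 0.16). Counts this low give each value little precision. Its promoter window holds a CARE on the reverse strand, as does that of Trib3, and it is shown as an example of this element in an ATF4 target.
Chac1 (chr3:126795944-126795991, plus strand): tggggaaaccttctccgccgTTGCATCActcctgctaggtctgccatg
Of the 4 ATF4 targets, 3 were tested in DN over normal and none passed, with positive signs in all 3 and a median log2 fold change of 0.49.

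**Figure D4:**
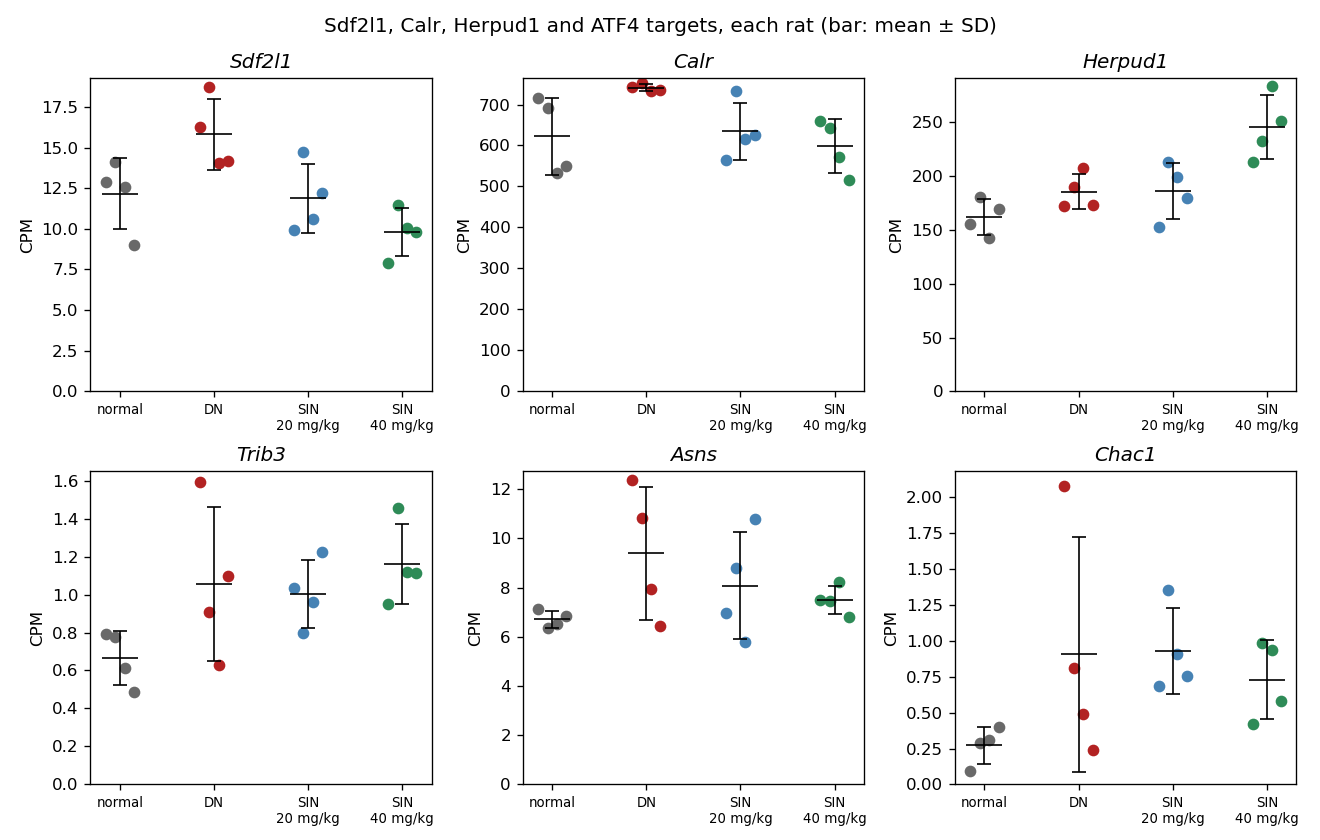
Points are the 4 rats of each group in CPM, and bars give the mean and SD. Sdf2l1 and Calr are higher in the DN rats than in the SIN (40 mg/kg) rats, Herpud1 is highest in SIN (40 mg/kg), and Trib3, Asns and Chac1 have their widest spread in DN.

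In the cytosolic group, Hspa8, the constitutive HSP70 (HSC70), had 1055, 909.7, 1002 and 1021 CPM in normal and 628, 814, 799.5 and 624 in DN. No DN rat reached the normal range (log2 fold change -0.47, SE 0.12, adjusted p = 0.028), and the call was lost without normal replicate 1, 3 or 4 or DN replicate 1 or 4 (adjusted p from 0.051 to 0.082). The SIN (20 mg/kg) rats had 913, 1089, 1083 and 736 CPM, with replicate 4 inside the DN range and the other 3 above it, and the SIN (40 mg/kg) rats had 963, 893, 905 and 897, all above DN. Hsph1, the HSP110 nucleotide exchange factor of HSP70, had 135, 125, 147 and 134 CPM in normal and 110.0, 95.3, 94.5 and 87.05 in DN. All DN rats were lower (log2 fold change -0.48, SE 0.10, adjusted p = 0.013), and this call was kept in each of 14 alternatives. In the SIN groups it was 104, 120.2, 113 and 85.9 CPM at 20 mg/kg and 105, 114, 110.5 and 122 at 40 mg/kg, all below the lowest normal rat, with log2 fold changes over normal of -0.36 (adjusted p = 0.091) and -0.26 (adjusted p = 0.091).

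The canonical heat shock element (HSE) was searched as GAANNTTCNNGAA on both strands and found in 267 windows of all genes (0.798%). Members with it were Hspa8, Hsph1, Hspd1 and Hspe1. The windows of the called members Hspa8 and Hsph1 are shown with the elements in capitals.
Hspa8 (chr8:50080281-50080491, plus strand): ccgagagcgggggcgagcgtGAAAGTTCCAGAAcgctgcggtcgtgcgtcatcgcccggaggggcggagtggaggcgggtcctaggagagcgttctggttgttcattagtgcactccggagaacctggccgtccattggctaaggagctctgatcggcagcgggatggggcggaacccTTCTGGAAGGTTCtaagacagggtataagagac
Hsph1 (chr12:10427312-10427364, plus strand): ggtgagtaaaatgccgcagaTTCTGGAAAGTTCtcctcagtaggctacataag
Hspa8 held 2 elements, at -213 and -55, and Hsph1 held 1, at -36. Hspd1 and Hspe1, the mitochondrial chaperonins HSP60 and HSP10, start 290 bases apart in opposite directions, so that their windows share the same pair of overlapping elements.

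The inducible HSP70 gene Hspa1b had 30.5, 62.3, 102 and 63.4 CPM in normal and 57.7, 62.7, 50.9 and 28.4 in DN, and its wide spread left the log2 fold change at -0.37, SE 0.34, adjusted p = 0.45. Hspa1b shares nearly all its coding sequence with Hspa1a, which has no row under its name. How reads of the pair were assigned is not known, so the level of Hspa1b is uncertain. Hspb1, the small heat shock protein HSP27, had 15.6, 24.6, 22.6 and 16.1 CPM in normal and 31.1, 26.4, 31.05 and 22.4 in DN, with a log2 fold change of 0.50 (adjusted p = 0.074). It was the only cytosolic member with a positive sign, and it passed the test in DESeq2 (adjusted p = 0.038) and, in edgeR, without normal replicate 2 (adjusted p = 0.040). Bag3, which couples HSP70 to autophagy, had 63.8, 75.4, 52.4 and 69.2 CPM in normal and 48.2, 40.7, 53.7 and 57.5 in DN, with a log2 fold change of -0.38 (adjusted p = 0.084). Dnajb1, the main HSP40 of the cytosol, and Hsp90ab1, the constitutive HSP90, gave log2 fold changes of -0.22 (adjusted p = 0.11) and -0.08 (adjusted p = 0.54). In both SIN groups every rat was below every normal rat for Hsp90ab1, with log2 fold changes over normal of -0.23 (adjusted p = 0.19) and -0.26 (adjusted p = 0.13). At 40 mg/kg every rat was also below every DN rat (log2 fold change -0.17, adjusted p = 0.36).

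Hsp90aa1, the inducible HSP90, is listed at 35.2, 0, 72.3 and 60.3 CPM in the normal rats, 26.6, 33.5, 41.4 and 32.6 in DN, 54.1, 22.8, 37.5 and 34.3 in SIN (20 mg/kg) and 46.6, 27.1, 38.6 and 40.9 in SIN (40 mg/kg). In normal replicate 2 it was the only gene at 0 among those with at least 100 counts in each of the other 15 rats. No fold change is given, since a 0 in a table of estimated counts can be a failed estimate. Over the 8 cytosolic members 2 were called lower in DN (25.0%, beside 19.5% of all genes called and 10.8% called lower), 7 had a negative sign and the median of the fitted log2 fold changes was -0.34 (Hsp90aa1 included). The chaperonins had 605 ± 91.3 CPM in normal and 516 ± 99.4 in DN for Hspd1 and 126 ± 14.3 and 137 ± 14.8 for Hspe1 (SD, n = 4), with log2 fold changes of -0.22 (adjusted p = 0.35) and 0.13 (adjusted p = 0.45).

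**Figure D5:**
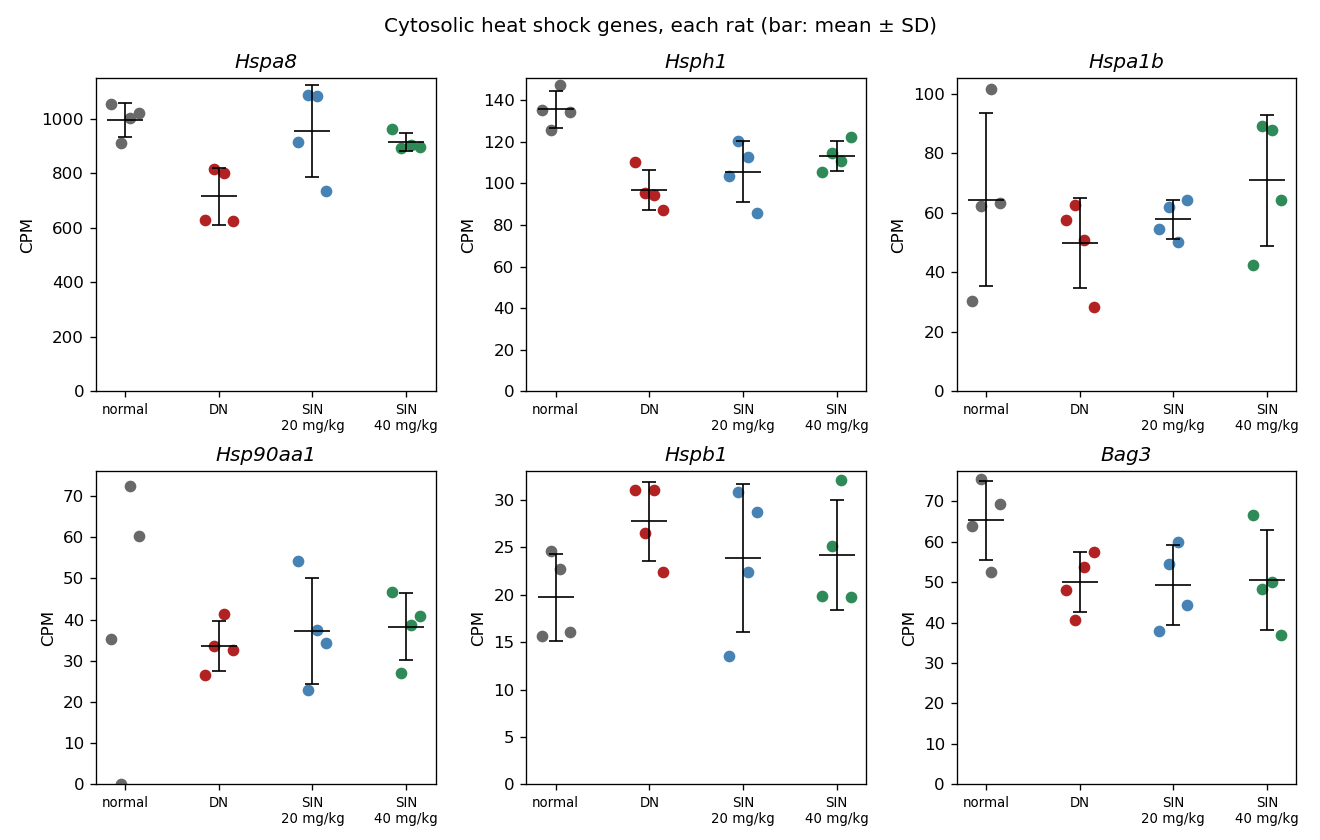
Points are the 4 rats of each group in CPM for 6 cytosolic heat shock genes, and bars give the mean and SD, except for the normal group of Hsp90aa1, where 1 rat is listed at 0. The DN rats all lie below the normal rats for Hspa8 and Hsph1, and the groups overlap for the other 4 genes.

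Other genes of the same pathways, listed by function, were counted in the same fit. Of 44 tested further cytosolic chaperones, co-chaperones and HSP90 partners, 18 were lower and 5 higher in DN (52.3% called, beside 19.5% of all genes), with a median log2 fold change of -0.20. The 4 with the smallest adjusted p were Dnaja4, an HSP40, with a log2 fold change of -0.75 (adjusted p = 0.0033), Ahsa2, which resembles the HSP90 activator AHA1, with -0.99 (adjusted p = 0.0064), Chordc1, an HSP90 co-chaperone, with -0.75 (adjusted p = 0.0072), and Ppid, an HSP90-binding cyclophilin, with -0.83 (adjusted p = 0.014). These directions were mostly those of Hspa8 and Hsph1, while Bag2, an HSP70 nucleotide exchange factor, went the other way at 0.71 (adjusted p = 0.016). In SIN (20 mg/kg) over normal 3 of the 44 were called, all lower (6.82%, near the 6.36% of all genes), and in SIN (40 mg/kg) over normal 5, all lower (11.4%, beside 5.97%). Dnaja4 was among them at both doses, with log2 fold changes of -0.92 (adjusted p = 0.00092) and -0.83 (adjusted p = 0.0011).

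Among 31 tested further ER folding genes, 4 were lower and 4 higher in DN (25.8% called, beside 19.5% of all genes), with a median log2 fold change of 0.10. Uggt1, which marks misfolded glycoproteins for another round with calnexin, was higher (log2 fold change 0.52, SE 0.08, adjusted p = 0.0048), and Dnajc10, an ER disulfide reductase, Ppic, an ER cyclophilin, and Serp1, which stabilizes membrane proteins, were lower, with log2 fold changes of -0.46, -0.55 and -0.40. Of 27 tested further genes of ER-associated degradation and of the translocon, 4 were lower and 1 was higher, which at 18.5% is near the share over all genes (median 0.05). Spcs3, a signal peptidase subunit, fell by 0.90 on the log2 scale (adjusted p = 0.012), Sec63 by 0.62 and Edem3 by 0.81, and Ssr4, a translocon subunit, rose by 0.47. Calls in these lists ran in both directions.

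Of 36 tested further ATF4 targets, 5 were higher and 2 lower in DN (19.4%, near the 19.5% of all genes), and the median was 0.10. Gdf15, a stress cytokine, had a log2 fold change of 1.01 (adjusted p = 0.011), Atf5, a related transcription factor, 0.50 (adjusted p = 0.012), and Stc2, a secreted glycoprotein, 1.42 (adjusted p = 0.013). Psat1, an enzyme of serine synthesis, went down in DN (-0.69, adjusted p = 0.024) and was also lower than normal in both SIN groups, with log2 fold changes of -1.23 (adjusted p = 0.00026) and -0.82 (adjusted p = 0.0015). Here too the calls ran in both directions. In the mitochondrial quality control list, 3 of 9 tested genes were called (33.3%, beside 19.5% of all genes), all higher in DN, namely Clpp, a matrix protease (0.71, adjusted p = 0.0072), Trap1, the mitochondrial HSP90 (0.50, adjusted p = 0.016), and Htra2, an intermembrane protease (0.35, adjusted p = 0.037).

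The question of what SIN changed in diabetic rats was addressed by comparing each dose with the DN group. These comparisons share the DN rats with each other and with DN over normal, so that the same 4 values per gene enter all of them. No member was called at either dose by edgeR's quasi-likelihood test, nor was any gene (0.0% of 15724 genes at 20 mg/kg and 0.0% of 15530 at 40 mg/kg). At an unadjusted p under 0.05, 4 of 38 members were higher and 3 lower at 20 mg/kg, beside 9.2% and 6.24% of all genes, and 7 were higher and 2 lower at 40 mg/kg, beside 9.9% and 7.21%. Groups did not overlap for 2 members above and 2 below DN at 20 mg/kg (5.34% and 3.65% of all genes) and for 5 above and 3 below at 40 mg/kg (6.43% and 3.99%). DESeq2, run as an alternative, called none of the members at 20 mg/kg and 4 at 40 mg/kg, beside 1.4% and 2.73% of all genes.

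The 4 members called by DESeq2 at 40 mg/kg were Sdf2l1, Atf6, Herpud1 and Calr. Sdf2l1 had 16.3, 18.7, 14.05 and 14.2 CPM in DN, 9.93, 14.7, 10.6 and 12.2 in SIN (20 mg/kg) and 7.92, 11.4, 10.1 and 9.78 in SIN (40 mg/kg). Every rat of the higher dose was below every DN rat, and the log2 fold change of -0.69 (SE 0.15, unadjusted p = 0.0012) had an adjusted p of 0.17 in edgeR and 0.0058 in DESeq2. Calr was 742, 752, 734 and 735 CPM in DN, 566, 732, 615 and 625 in SIN (20 mg/kg) and 659.9, 643, 572 and 516 in SIN (40 mg/kg). All SIN rats of both doses were below all DN rats, with log2 fold changes of -0.23 (unadjusted p = 0.048, adjusted p = 0.32) and -0.31 (unadjusted p = 0.012, adjusted p = 0.21) in edgeR and a DESeq2 adjusted p of 0.046 at the higher dose. The DESeq2 adjusted p was 0.033 for Atf6 and 0.049 for Herpud1.

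The 7 members called lower in DN were named for low DN values, and the same DN rats enter the comparison with SIN, so a positive sign over DN is no independent result. Atf6 is given above. Hspa8 had log2 fold changes of 0.41 (unadjusted p = 0.025, adjusted p = 0.29) at 20 mg/kg and 0.35 (unadjusted p = 0.014, adjusted p = 0.22) at 40 mg/kg, Hsp90b1 of 0.50 (unadjusted p = 0.032, adjusted p = 0.30) and 0.30 (unadjusted p = 0.11, adjusted p = 0.38), and Dnajc3 of 0.38 (unadjusted p = 0.033, adjusted p = 0.30) and 0.36 (unadjusted p = 0.020, adjusted p = 0.23). Hsph1 had 0.12 (unadjusted p = 0.33, adjusted p = 0.61) and 0.23 (unadjusted p = 0.039, adjusted p = 0.28), and Canx 0.16 (unadjusted p = 0.15, adjusted p = 0.45) and 0.14 (unadjusted p = 0.19, adjusted p = 0.48). None of these passed the test. Hspa5 had 0.25 (adjusted p = 0.39) at 20 mg/kg and -0.03 (adjusted p = 0.92) at 40 mg/kg, values on either side of 0. Edem1 at the higher dose was 139.5, 143, 139 and 159 CPM, above every DN rat (99.4, 108, 131 and 116), with a log2 fold change of 0.35 (unadjusted p = 0.0070, adjusted p = 0.20). The ATF4 targets Trib3, Asns, Chac1 and Sesn2 had log2 fold changes over DN of -0.08, -0.22, 0.03 and -0.12 at 20 mg/kg and of 0.13, -0.33, -0.31 and -0.16 at 40 mg/kg. For the heat shock genes Hspa1b, Hspb1 and Bag3 they were 0.21, -0.22 and -0.03, and 0.51, -0.20 and 0.01. All of these had overlapping groups.

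Between the doses, no member was called in SIN (40 mg/kg) over SIN (20 mg/kg), where 0.00639% of the 15657 genes, that is 1 gene, were called and DESeq2 called 0.109%. At an unadjusted p under 0.05 there were 3 of 38 members, beside 4.98% of all genes. Ern1 was 32.6, 35.8, 33.2 and 33.96 CPM at 20 mg/kg and 40.7, 42.9, 38.8 and 42.8 at 40 mg/kg, without overlap, with a log2 difference of 0.28 (unadjusted p = 0.0063, adjusted p = 0.96). Manf, a secreted ER protein that protects stressed cells, was 59.04, 63.8, 69.4 and 49.2 CPM at 20 mg/kg and 51.6, 48.01, 46.5 and 43.8 at 40 mg/kg, ranges that overlapped, with a log2 difference of -0.35 (unadjusted p = 0.010, adjusted p = 0.96). Herpud1 was the third, as given above.

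Levels per kilobase of transcript spanned a wide range in normal kidney. On the scale of mean CPM per kilobase, Hspa8 led with 514, followed by Hspe1 with 472, Hsp90ab1 with 467, Calr with 334 and Hspd1 with 272, and Asns, Trib3 and Chac1 were lowest with 3.24, 0.345 and 0.174. The length given for Hspe1, 267 bases, is that of a short model, so its place is uncertain. Members also differed in how closely rats of 1 group lay together. The median over the 4 groups of the coefficient of variation was lowest in Pdia6 (4.5%), Sel1l (4.86%) and Hsp90ab1 (5.3%) and highest in Hsp90aa1 (28.1%), Hspa1b (30.7%) and Chac1 (42.3%). Within groups, SIN (20 mg/kg) replicate 4 was the lowest of its group in 9 of the 14 ER chaperones and folding enzymes and DN replicate 1 in 7, while normal replicate 1 was the highest in 8.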

How the data were processed

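Kidney poly(A) RNA was sequenced from 16 rats on an Illumina platform. According to the study's methods, SeqPrep and Sickle were used by the authors for trimming, and TopHat for alignment to Rnor_6.0 with Ensembl annotation. The deposited gene table holds estimated counts (74.87% of nonzero values were whole numbers), which were rounded to whole counts. The submitters' processing notes list TopHat, Bowtie, RSEM and edgeR without roles, and whether counting used strand is not given in the sources used here. Columns of 4 libraries without a sample record, and their mean, were not used. The deposited group means differed by at most 0.0005 counts from means of the joined columns.

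Each comparison was fitted on the rats of its 2 groups over all genes that passed filterByExpr, with TMM scaling and the quasi-likelihood test of edgeR 4.0.16 (R 4.3.3) and Benjamini-Hochberg adjustment over all genes tested. The threshold was an adjusted p under 0.05. Alternatives were DESeq2 1.42.0, RLE scaling, no filter, 1 fit of all 16 rats, a filter of at least 10 counts in each rat compared, a replicate block and leaving out each rat. The fit was also run on simulated counts with log2 changes of 1. These are larger than the changes of the members called in DN over normal, so that run cannot speak for changes of their size. Tables and promoter searches used Python 3.11.15.

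Members called in any comparison and 13 members listed by name were described in full, and from each further pathway list up to 4 genes with the smallest adjusted p in DN over normal, and genes named beyond those were picked with their values in view. The members and lists were chosen with earlier results of these data known. Sequences are from RefSeq on build GRCr8, and no coordinates of Rnor_6.0 were used. P-values weigh the difference between the groups compared against the spread between rats within them.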

Additional observations from a re-analysis of the deposited data

Results flagged for a closer look

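In 152 sets of 4 rats (38 genes in 4 groups), 1 rat stood far from the other 3 of its group on the log2 CPM scale in 4 cases by Dixon's criterion at the 95% level, and chance alone gives about 1 in 20. Dnajb9 was 9.78 CPM in DN replicate 1, where the other DN rats had 16.3 to 16.5. Creld2 was 15.0 CPM in SIN (40 mg/kg) replicate 2, where the others had 17.3 to 17.6. In normal replicate 2, Hsp90aa1 is listed at 0 CPM and Hspd1 was 469.8 CPM, where the other normal rats had 629.8 CPM or more of Hspd1.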

How the results depend on the processing

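The number of members called in DN over normal was 8 in the analysis as reported and 6 to 10 under DESeq2, RLE scaling, no filter, a stricter filter and 1 fit of all 16 rats, and it ran from 1 to 11 when single rats were left out. In SIN (20 mg/kg) over normal it was 1 as reported, 2 with DESeq2, 0 with no filter, 0 with at least 10 counts in every compared rat, and 0 without any 1 rat. In SIN (40 mg/kg) over normal it was 1 as reported, 4 with DESeq2 and from 1 to 2 without single rats. It was 0 in SIN over DN at both doses and between the doses, from 0 to 0 without single rats, and 4 with DESeq2 in SIN (40 mg/kg) over DN. With a replicate block the counts were 2 in DN over normal, 0 in SIN (20 mg/kg) over normal, 2 in SIN (40 mg/kg) over normal and 0 in the other 3 comparisons. Deviations of same-numbered rats correlated at -0.239 to 0.244, with both signs. Whether same-numbered rats shared any handling cannot be read from these values. Of 559 recomputed single-gene values (40 results), 472 kept their direction and side of the threshold, 56 lost a call, 3 gained one and 28 changed sign. None of the 28 was called. In SIN (40 mg/kg) over DN, Bag3 had 0.01 as reported, -0.002 with DESeq2, RLE scaling or all 16 rats in 1 fit, -0.004 with a replicate block and -0.148 to 0.129 without single rats. Leaving out single rats gave these ranges of log2 fold change for the other genes that changed sign. In SIN (20 mg/kg) over DN, Atf4 ran from -0.037 to 0.073, Xbp1 from -0.077 to 0.093, Trib3 from -0.264 to 0.183 and Bag3 from -0.137 to 0.074. In SIN (40 mg/kg) over DN, Hspa5 ran from -0.136 to 0.043, Ddit3 from -0.081 to 0.004, Xbp1 from -0.213 to 0.004 and Trib3 from -0.049 to 0.384. The causes were not tested. Chac1 had 2 to 9 counts in normal rats.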
